A study of Mus musculus with 6 samples.

Results

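The reads described here were bound to Argonaute (Ago) proteins in mouse brain and were assigned to a miRNA hairpin, but not to an annotated mature miRNA. Members were chosen by the deposited annotation alone: a sequence above 0 in at least 1 of 6 samples, with no match in the mature miRNA column and with a miRNA hairpin as its small RNA match. The rule found 7951 of 65087 sequences, from 247 hairpins and with 1180 different seeds. The 3 WT and 3 Tau tg samples came from male mice on a C57BL/6J background, and the study's methods give their age as 3 months. Tau tg mice carried a fragment of human tau, tau45-230, under the Thy 1.2 promoter, which drives expression mainly in neurons, and WT mice served as controls. The small RNA libraries did not measure the transgene itself. The labels named hippocampus, whereas the protocol named cortex and hippocampus combined. Ago complexes were isolated with a GW182-derived peptide, and their RNA was sequenced after gel selection. Levels are in RPM, reads scaled to the depth of each sample.

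A miRNA hairpin is cut by Drosha in the nucleus and by Dicer in the cytoplasm, which leaves a duplex of a 5p and a 3p arm and releases the loop between them. One arm is then held by Ago, and its 6mer seed, read positions 2 to 7, pairs with target mRNAs. Adenosines in some hairpins are deaminated to inosine by ADAR enzymes, which are abundant in brain, and inosine is read as guanosine in cDNA. A change inside the seed replaces the set of mRNAs that pair with the miRNA. A read can therefore carry a hairpin name without matching the mature miRNA in several ways: it can differ by a base, be shorter than the annotated reads, start at another base or come from the loop.

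The most abundant member, a read of mir-376b, differed from an annotated miRNA by a single A-to-G change. The pairs below show the most abundant deposited read of each form, in RNA letters, for the sites inside a seed at which members held the largest shares. The capital marks the base that differs. Positions are counted from 1 at the 5′ end of the annotated read, so that A6G means A in the annotated read and G in the member at position 6.
miR-376b-3p, annotated: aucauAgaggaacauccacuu
miR-376b-3p, A6G member: aucauGgaggaacauccacuu
miR-376c-3p, annotated: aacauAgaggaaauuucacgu
miR-376c-3p, A6G member: aacauGgaggaaauuucacgu
miR-411-5p, annotated, longer 5′ end: auaguAgaccguauagcguacg
miR-411-5p, A6G member, longer 5′ end: auaguGgaccguauagcguacg
miR-411-5p, annotated: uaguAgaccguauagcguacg
miR-411-5p, A5G member: uaguGgaccguauagcguacg
miR-379-5p, annotated: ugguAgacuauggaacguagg
miR-379-5p, A5G member: ugguGgacuauggaacguagg
miR-376b-5p, annotated: guggauAuuccuucuaugguu
miR-376b-5p, A7G member: guggauGuuccuucuaugguu

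The same bases are shown in capitals in the RefSeq hairpins, which place them in each stem (GRCm38.p6). RefSeq held a hairpin sequence for 187 of the 247 named hairpins. Mir376b lies at chr12:109723458-109723539 on the plus strand, with its 5p base at 109723477 and its 3p base at 109723513. Mir376c lies at chr12:109722718-109722803 with its base at 109722775, Mir411 at chr12:109710175-109710256 with its base at 109710194, and Mir379 at chr12:109709060-109709125 with its base at 109709069. Both 5′ ends of miR-411-5p carry the change at the same genomic base.
Mir376b: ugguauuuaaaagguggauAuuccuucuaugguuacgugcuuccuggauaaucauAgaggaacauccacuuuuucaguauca
Mir376c: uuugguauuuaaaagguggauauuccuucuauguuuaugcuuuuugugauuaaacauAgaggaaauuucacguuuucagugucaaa
Mir411: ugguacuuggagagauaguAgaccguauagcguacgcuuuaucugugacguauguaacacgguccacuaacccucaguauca
Mir379: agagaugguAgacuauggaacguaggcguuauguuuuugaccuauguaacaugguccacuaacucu

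Shares at each site were computed from reads with the same first 18 nt as an annotated read, allowing 1 difference in the member. At miR-376b-3p A6G, the member form made up 71.5%, 81.2% and 71.8% of reads in the WT samples and 70.8%, 78.7% and 73.0% in the Tau tg samples. The member was therefore more abundant than the annotated form in all 6 samples, at a mean of 1734 against 582 RPM. It changed the seed from UCAUAG, with a viability of 66.8%, to UCAUGG, with a viability of 44.2%. Viability here is that of cells given a short RNA with the seed, in percent and averaged by the authors over 3 murine cell lines, so that a low value marks a toxic seed. No annotated miRNA read in the 6 samples carried UCAUGG.

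At miR-376c-3p A6G, the shares were 47.3%, 51.4% and 43.2% in WT and 53.0%, 60.6% and 50.5% in Tau tg, so that both forms were about equally abundant. Its levels were lower than those of miR-376b-3p, at 92.5 RPM for the member and 89.1 RPM for the annotated form. The seed changed from ACAUAG (78.1% viability) to ACAUGG (46.4%). The WT and Tau tg samples overlapped, and the exact two-sided permutation p was 0.2 (adjusted p = 0.57 over 17 sites).

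miR-411-5p carried the change on both of its 5′ ends. The longer form, read as A6G, was at 34.3%, 41.8% and 43.1% in WT and at 24.8%, 30.9% and 33.2% in Tau tg. The groups did not overlap, with means of 39.7% ± 4.72 and 29.6% ± 4.34 (SD, n = 3). The exact two-sided permutation p was 0.1, the smallest that 3 against 3 samples allow, and the adjusted p was 0.57. The shorter form, read as A5G, ranged from 14.3% to 42.6% in WT and from 17.4% to 29.0% in Tau tg. With both 5′ ends summed, the share of the base was 23.6%, 32.7% and 42.8% in WT and 25.2%, 23.6% and 31.3% in Tau tg, and the groups overlapped. The shift of 1 base in the 5′ end gave 2 changed seeds, UAGUGG (47.3% viability, from 84.3%) and AGUGGA (64.3%, from 87.2%). Neither changed seed occurred in annotated miRNA reads.

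At miR-379-5p A5G, the shares were 17.8%, 5.90% and 17.3% in WT and 17.1%, 23.6% and 13.0% in Tau tg. The changed seed GGUGGA had the lowest viability of these sites, 15.7%, against 34.4% for the annotated GGUAGA. On the other arm of mir-376b, A7G in miR-376b-5p made up 10.8%, 8.78% and 5.07% in WT and 11.7%, 26.3% and 9.02% in Tau tg. The first 18 nt of miR-376b-5p also occur in the Mir376c hairpin shown above. This share can therefore include reads of that hairpin, although the 21-nt member shown above ends as in Mir376b. The A7G change turned UGGAUA (93.0%) into UGGAUG (71.7%). The viability was lower for the changed seed at all 6 of these A-to-G sites. None of the group comparisons at these sites passed an adjusted p of 0.05, and the lowest adjusted p over the 17 sites was 0.57.

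Across 451 read starts with at least 50 RPM of annotated reads, 2706 sites had a member read with 1 difference, and the median share was 0.0518%. A site is a position on 1 read start, so a base read from several starts, as in miR-411-5p, counts once per start. Members held at least 5% at 17 sites, of which 11 were A to G. A further 33 sites lay between 1% and 5%, and 17 of these were A to G. Of the 11 A-to-G sites, 8 belonged to 6 hairpins of the imprinted miRNA cluster on chromosome 12, a large maternally expressed group of brain miRNAs: the 6 above, miR-337-3p A10G (8.70% of all reads at the site) and miR-377-3p A10G (6.88%). The other 3 were miR-421-3p A14G (11.1%) and miR-378a-3p A16G (6.80%) and A15G (5.21%). The last lies on a read start 1 nt downstream and is the same base as A16G. These 3 sites, like those of miR-337-3p and miR-377-3p, lay outside the seed. miR-421-3p A14G was uneven between samples, at 0.366%, 32.5% and 3.66% in WT and 18.1%, 0% and 10.6% in Tau tg.

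The 6 remaining sites at or above 5% were of other kinds: miR-193b-3p A10T (37.2%), miR-455-3p C9T (10.6%), miR-103-3p G13C (10.4%), miR-151-3p G10A (9.15%), miR-362-3p G10A (6.48%) and miR-1224-5p G10C (6.27%). They differed from the A-to-G sites in another column of the table. The deposited total of each sequence, which covers more than the 6 samples, exceeded the sum of the 6 samples by more than 1.5 times at 5 of these 6 sites and at 0 of the 11 A-to-G sites. At miR-193b-3p A10T, for example, it was 7.45 times that sum, whereas at the A-to-G sites it was at most 1.01 times. The origin of these reads, including whether they came from mouse RNA, was not tested, so their percentages are not read as shares of the mouse miRNAs. Some of the 17 pooled percentages rest on few samples. The miR-103-3p G13C reads occurred in WT 3 only, where they made up 59.1% of the reads at this read start. That start is a minor one, at a mean of 51.5 RPM of annotated reads (24.8 RPM in WT 3). All annotated reads of mir-103 averaged 6534 RPM, and all its members together made up 3.75% of its reads in WT 3. Those of miR-1224-5p G10C occurred in WT 1 (7.41%) and WT 2 (33.8%) only. miR-362-3p G10A ranged from 1.46% to 15.4% and was highest in WT 3, and miR-378a-3p A15G was found only in Tau tg 1 (15.3%) and Tau tg 3 (13.9%).

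Single substitutions made up most of the member reads. They differed by 1 base from an annotated read or, rarely, from the hairpin alone. They accounted for 6361 sequences and for 70.0% to 76.6% of member RPM per sample. Sequences found in a RefSeq hairpin without a difference numbered 706 and held 13.97% to 20.5% of member RPM. A further 409 sequences were pieces of an annotated read, with 3.76% to 5.44%, 95 had a gap of 1 nt, 119 had 2 substitutions, and 261 were not close to any annotated read or hairpin, with 2.05% to 3.98%. The order of the 3 largest classes was the same in all 6 samples. Members were mostly of miRNA length: 21 nt reads held 33.1% to 37.5% and 22 nt reads 25.2% to 29.6% of member RPM.

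Among the single substitutions, A to G held 37.7% to 42.7% of the RPM, T to C 17.8% to 21.0%, C to T 11.6% to 14.1% and G to A 11.4% to 14.2%. Each of the 8 transversions held at most 4.23% in any sample. Without mir-376b, mir-376c, mir-411 and mir-379, A to G fell to between 24.3% and 25.8%, close to T to C at 23.1% to 26.3%. Outside the sites of at least 5%, A to G was found at 0.0634% of the annotated adenosines read, T to C at 0.0566% of thymidines, C to T at 0.0544% of cytidines and G to A at 0.0408% of guanosines. Members thus contained a small number of sites with a large share and a broad set of low-level transitions on abundant miRNAs. Most members were of the second kind: the median member with a parent of at least 10 RPM had 0.0794% of the RPM of that parent.

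Within the members, the substitutions were not spread evenly along the read. Positions 5 to 18 held 95.9% of their RPM, position 6 alone 18.5% to 24.8% of it, and positions 1, 2, 3 and 4 only 27, 13, 42 and 139 of the 6361 sequences. Position 11 had 864 sequences against 431 at position 10 and 387 at position 12. The members do not hold every such read: 595 sequences outside them were also 1 substitution from an annotated read of at least 10 RPM, at 970 to 1277 RPM per sample, against 10354 to 13673 RPM in members. Of these 595, 18 were at positions 1 to 4, 564 at 5 to 18 and 13 later. Of the 5856 members with such a parent, 170, 5593 and 93 were. A substituted read that kept a mature miRNA match is not a member. Whether the rule shaped the positions was not tested. The shortest annotated read had 18 nt, and a change near either end can leave such a stretch unchanged. Substitutions in annotated reads were not counted, so the positions given leave those reads out. 

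Other members matched the hairpin exactly. The most abundant of these was a shifted mature form. The most abundant read of mir-341, a hairpin of the same chromosome 12 cluster, began 4 nt downstream of the RefSeq start of miR-341-3p, at hairpin bases 61 to 81 rather than 57 to 77. It overlapped that form by 17 nt. The capitals mark the member read in the hairpin, at chr12:109611500-109611595 on the plus strand.
miR-341-3p, RefSeq: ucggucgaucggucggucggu
mir-341 member: ucgaucggucggucggucagu
Mir341: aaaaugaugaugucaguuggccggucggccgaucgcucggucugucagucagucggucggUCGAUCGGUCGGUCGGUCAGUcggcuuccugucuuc

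This read was at 817, 800 and 834 RPM in WT versus 648, 1251 and 568 RPM in Tau tg. The WT samples lay close together, and the Tau tg samples fell on both sides of them (log2 difference −0.08 ± 0.47 SE, limma adjusted p = 0.92). Its seed, CGAUCG (71.1% viability), was rare among annotated reads, at 2.92 RPM. Members made up 67.8% of all reads of mir-341, so that the annotated form was the minor form of this miRNA in the Ago complexes.

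Short pieces of mature arms were the most numerous. Of the 706 exact hairpin reads, 560 lay inside a mature miRNA, and 539 of these were 15 to 17 nt long, below the 18 nt of the shortest annotated read. An abundant example was a 16-nt piece from the 5′ end of let-7c, which keeps the let-7 seed, GAGGUA. The same bases occur in other let-7 miRNAs, such as in the let-7a-1 hairpin shown further on, so that its hairpin is uncertain.
let-7c-5p, RefSeq: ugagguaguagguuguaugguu
let-7c-2 member: ugagguaguagguugu

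The let-7c piece was at 63.2, 60.3 and 78.0 RPM in WT versus 14.5, 19.2 and 21.3 RPM in Tau tg. Every Tau tg sample was below every WT sample, with a log2 difference of −1.82 ± 0.78 (SE). The unadjusted limma p was 0.019 and the adjusted p over 36070 sequences was 0.58, so the difference did not pass correction. It was the only let-7 member called lower at an unadjusted p under 0.05. Short pieces of let-7a-1, let-7c-2, let-7e, let-7f-1 and let-7g were called higher, also without passing correction. These pieces averaged under 1 RPM in WT and reached the mean of 1 RPM required for testing only through Tau tg. A 16-nt let-7e piece with the seed GAGGUA was at 0 RPM in each WT sample versus 1.14, 12.5 and 10.6 RPM in Tau tg (limma adjusted p = 0.58). A 16-nt piece from the 3′ end of miR-29b was at 52.0, 27.1 and 36.7 RPM in WT versus 18.9, 31.8 and 13.5 RPM in Tau tg, with overlap.

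Loops were rare. The loop between both arms held 15 sequences, with 0.220% to 2.19% of the exact hairpin reads per sample. Most of them came from let-7 hairpins. The most abundant was a 22-nt read of let-7a-1, at hairpin bases 35 to 56, which follows the 5p arm directly. It was at 29.0 RPM in WT 1, at 9.53 and 0.818 RPM in Tau tg 1 and 3, and it was not detected in the other 3 samples. A 20-nt let-7d loop read was at 24.4 RPM in WT 2 and absent from the other samples, in which 3 reads would correspond to 0.427 to 2.75 RPM. A 22-nt loop read of let-7c-1 was found at 5.41 and 11.7 RPM, in Tau tg 1 and 2, and a 21-nt form at 11.05 RPM in Tau tg 3 and 0.917 RPM in WT 3. The capitals mark the loop read in the RefSeq hairpins, at chr13:48538179-48538272 and chr13:48536012-48536114 on the minus strand for let-7a-1 and let-7d, and at chr16:77599657-77599750 on the plus strand for let-7c-1.
Mirlet7a-1: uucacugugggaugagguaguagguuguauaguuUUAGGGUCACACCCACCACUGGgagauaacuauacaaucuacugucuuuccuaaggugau
Mirlet7d: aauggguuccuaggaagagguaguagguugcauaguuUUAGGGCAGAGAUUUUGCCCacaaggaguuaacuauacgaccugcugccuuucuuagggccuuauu
Mirlet7c-1: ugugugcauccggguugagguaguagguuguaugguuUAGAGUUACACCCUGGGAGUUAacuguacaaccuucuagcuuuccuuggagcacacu

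The share of exact hairpin reads that overlapped no mature arm by 10 nt or more was 2.20%, 1.03% and 0.220% in WT and 1.92%, 0.935% and 0.530% in Tau tg. The groups overlapped (exact two-sided permutation p = 1, adjusted p = 1).

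Member reads were concentrated in few hairpin names. Each member carried 1 hairpin name, and copies of a miRNA gene were not told apart. All 1495 RPM of mir-124 members, for example, were named mir-124-2, and 877 of the 878 RPM of mir-9 members were named mir-9-2. The copy named is thus not shown to be the source. The 15 most abundant of the 247 hairpins held 57.8% of the mean member RPM, 36 hairpins were at 100 RPM or more, and 26 were below 1 RPM. The first was mir-376b at a mean of 1854 RPM, with 1651, 2108 and 1299 RPM in WT and 2081, 2582 and 1404 RPM in Tau tg. It was followed by mir-124-2 (1495 RPM), a hairpin of the most abundant neuronal miRNA, then by mir-341 (980 RPM), mir-9-2 (877 RPM), let-7c-2 (701 RPM), mir-128-1 (628 RPM), mir-26a-2 (595 RPM), mir-411 (574 RPM), mir-29a (495 RPM), mir-125b-2 (408 RPM), let-7b (369 RPM), mir-29b-2 (317 RPM), let-7a-1 (286 RPM), mir-222 (241 RPM) and mir-23b (238 RPM). In mir-376b, mir-341 and mir-411 a single read held 73.8%, 83.7% and 45.6% of the member RPM. In the other 12 hairpins the most abundant read held 2.41% to 11.6%, and many low reads made up the rest, as in mir-124-2 with 368 and mir-9-2 with 303 sequences.

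The most abundant reads of these other hairpins were low-level copies of an abundant miRNA. In mir-128-1 it was A10G of miR-128-3p, at 16.9, 40.0 and 45.9 RPM in WT and 34.3, 50.2 and 45.8 RPM in Tau tg, or 0.208% of its parent. Those of mir-9-2 (T17C, 21.1 RPM), mir-26a-2 (A16G, 24.96 RPM), mir-29a (T9C, 18.2 RPM), mir-125b-2 (A9G, 28.8 RPM), let-7b (A10G, 19.0 RPM) and let-7a-1 (T13C, 18.7 RPM) were at 0.131% to 0.651% of theirs. An 18-nt piece of miR-124 was at 75.1 RPM, and a 19-nt hairpin read of mir-23b at 17.95 RPM, of which WT 3 alone had 59.6 RPM. The A15G read of mir-222 was at 27.2, 123 and 6.42 RPM in WT versus 7.68, 0.836 and 2.05 RPM in Tau tg, and the groups overlapped. WT 2 was far above the other samples for that read (log2 difference −3.02 ± 0.98 SE, limma adjusted p = 0.58).

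Members can be set against the annotated reads of the same miRNA. For 177 miRNA names with at least 100 RPM in all, the median share of members was 1.46%, with quartiles at 0.998% and 1.96%. Of these, 11 were above 10%, headed by mir-341 (67.8%), mir-376b (60.1%), mir-376c (50.3%), mir-193b (38.2%), mir-411 (21.4%), mir-455 (17.3%) and mir-379 (12.02%). Those of mir-193b and mir-455 include the reads of untested origin. Across 202 names, member RPM and annotated RPM had a Spearman correlation of 0.81, which is a description across miRNAs of the same libraries. The 35 hairpins of the chromosome 12 cluster, between 109563692 and 109743795, held 22.1% to 28.8% of member RPM per sample. The same miRNAs held 4.82% to 7.16% of the annotated miRNA RPM. By RPM, the member share was above the annotated share in each of the 6 samples. By number of sequences it was not, as the cluster held 7.02% of members and 9.51% of annotated miRNA sequences. Much of its member RPM lay in mir-376b, mir-341 and mir-411, at 1854, 980 and 574 RPM. The share of the cluster without these hairpins was not computed.

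All reads of 5 hairpins, mir-1937a, mir-1937b, mir-1274a, mir-1957 and mir-720, shared a stretch of 15 nt with sequences annotated as tRNA or rRNA in the same table. The largest, mir-1937a, was at 68.4, 223 and 340 RPM in WT versus 92.8, 219 and 203 RPM in Tau tg, and none of its reads shared such a stretch with an annotated miRNA read. WT 1 and Tau tg 1 were the lowest of their groups, and sequences of excess deposited total made up 83.0% of this hairpin's RPM. Such members made up 0.499% to 2.31% of member RPM.

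By seed, the 6 most abundant groups held 33.6% of member RPM. UCAUGG (1736 RPM) came almost entirely from mir-376b, at 99.9%. GAGGUA (1431 RPM) combined 571 sequences from 10 hairpins of the let-7 family, CGAUCG (942 RPM) came from mir-341, AAGGCA (730 RPM) from mir-124-2, AGCACC (520 RPM) from the mir-29 family, and CACAGU (488 RPM) mainly from mir-128-1. UCAUGG and CGAUCG occurred almost only in members, whereas GAGGUA was also held by 127399 RPM of annotated reads. Of the 1180 seeds, 371 occurred in no annotated miRNA read, and they accounted for 24.5% of member RPM.

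Substitutions at positions 2 to 7 changed the seed in 1370 sequences, with 32.9% to 39.2% of the RPM of single substitutions. The changed seeds had a mean viability, weighted by RPM, of 49.9% ± 0.57 in WT and 48.4% ± 0.66 in Tau tg (SD, n = 3). The seeds of the annotated reads they differ from were at 65.2% ± 1.11 and 64.2% ± 0.34. The changed seed was thus 15.3 and 15.9 points lower in the group means, and lower in each sample, by 14.2 to 16.5 points. By number, 757 of 1369 changed seeds with a viability on both sides were lower and 609 were higher. Without mir-376b the difference was −11.2 points in WT and −11.5 points in Tau tg.

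Over all members, the mean seed viability was 56.2%, 55.9% and 57.0% in WT and 55.6%, 55.7% and 55.8% in Tau tg. Every Tau tg sample was below every WT sample, with a difference of −0.642 points (56.3% ± 0.58 against 55.7% ± 0.11, SD, n = 3). The exact two-sided permutation p was 0.1, the smallest possible, and 0.4 after adjustment over 4 measures. Without WT 3 the difference was −0.320 points. The annotated miRNA reads had means of 58.5% ± 1.35 in WT and 57.7% ± 0.35 in Tau tg. Members with a viability under 50% held 35.3% ± 1.74 of member RPM in WT and 37.1% ± 1.09 in Tau tg, compared with 23.2% ± 0.59 and 24.1% ± 0.77 for annotated reads. Single sites weigh heavily in this. UCAUGG (44.2% viability), almost entirely from mir-376b, held 9.98% of mean member RPM, and UAGUGG (47.3%) of mir-411 held 1.84%. The share under 50% without these seeds was not computed.

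The comparison between WT and Tau tg asked whether the abundance of these reads differed with the tau transgene. Members held 1.81%, 1.79% and 1.67% of the RPM in WT and 1.91%, 2.08% and 1.67% in Tau tg (exact permutation p = 0.5, adjusted p = 1). Leaving out Tau tg 2 changed the difference from 0.133 to 0.0388 points, and leaving out Tau tg 3 to 0.240 points. With 998248 to 6879551 reads per sample, the 95% Wilson interval of such a share was narrow (2.05% to 2.10% for Tau tg 2), and it covers counting error only. The samples of a group lay farther apart than that. Reads of 19 to 25 nt made up 85.5% ± 1.96 of member RPM in WT and 85.1% ± 1.76 in Tau tg (exact permutation p = 0.8, adjusted p = 1). In bulk tissue, fewer cells of a type and less RNA per cell cannot be told apart.

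At the level of single sequences, 3224 of the 7951 members reached a mean of 1 RPM and were tested by limma. None had an adjusted p under 0.05, where the background over all 36070 sequences was 0.0277%, and the smallest adjusted p was 0.26. edgeR on recovered reads called 0 members and 49 of all 36070 sequences. DESeq2 called 7 of 3210 members, each of them above 0 in 1 WT sample only, and 564 of all 35584 sequences. At an unadjusted p under 0.05 there were 40 members (1.24%) against 2.23% of all sequences: 34 higher in Tau tg (1.05% against 1.44%) and 6 lower (0.186% against 0.787%). Some in each direction reached the mean of 1 RPM only through the group in which they were high. Examples are a 17-nt piece of mir-124-2, at 0 RPM in each WT sample, and a mir-669a-1 read with a Tau tg mean of 0.800 RPM. edgeR gave the opposite balance, with 11 members higher (0.341%) and 25 lower (0.775%), as it did over all sequences, with 357 higher (0.990%) and 2207 lower (6.12%). WT and Tau tg values did not overlap for 122 of the 1328 members found in every sample (9.19%), while the background was 9.31%. The shares of members called lay at or below this background.

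Sums by hairpin gave a similar picture. Of 247 hairpins, 221 were tested together with the mature miRNAs, 910 sums in all. No hairpin passed an adjusted p of 0.05 by limma (background 0%), edgeR or DESeq2. At an unadjusted p under 0.05, 11 hairpins (4.98%) were called against 5.05% of all sums. All 11 were higher in Tau tg (background 3.63% higher and 1.43% lower), while the median log2 difference was 0.28 for hairpins and 0.25 for all sums. With median-of-ratios scaling the median over all sums was 0.08, and the hairpins called were 8 higher (3.65%) and 2 lower (0.913%), against 20 higher (2.22%) and 17 lower (1.89%) of all 900 sums. edgeR called 4 hairpins higher and 2 lower, against 15 higher and 25 lower of all 910 sums. DESeq2 called 7 higher and 4 lower of 218, against 22 higher and 32 lower of all 892 sums. For 16 of the 152 hairpins found in every sample (10.5%), the values of WT and Tau tg did not overlap, and the background was 9.78%.

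The hairpins with an unadjusted p under 0.05 and groups that did not overlap were all low. Among the 8 of these with at least 2 RPM, the largest difference of means was in mir-99b, at 18.3, 8.81 and 9.17 RPM in WT and 29.6, 41.8 and 47.0 RPM in Tau tg (log2 difference 1.68 ± 0.78 SE, limma p = 0.047, adjusted p = 0.88). mir-667, a hairpin of the chromosome 12 cluster, was at 0.468, 0 and 0 RPM in WT versus 6.26, 70.3 and 3.27 RPM in Tau tg, and Tau tg 2 held most of it. mir-574 was at 0.936, 0 and 0 RPM in WT versus 2.56, 28.4 and 26.2 RPM in Tau tg. mir-199b, which had the smallest p (limma p = 0.00913, adjusted p = 0.76), was at 0.468, 0 and 2.75 RPM in WT versus 12.5, 30.9 and 11.0 RPM in Tau tg.

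mir-345 was at 0.937, 6.78 and 0.917 RPM in WT versus 17.5, 23.4 and 15.5 RPM in Tau tg. mir-34c, of the p53-induced mir-34 family, was at 8.90, 2.71 and 0 RPM in WT versus 25.8, 15.1 and 16.8 RPM in Tau tg. let-7c-1, whose exact reads include its loop, was at 4.22, 0 and 0.917 RPM in WT versus 6.69, 26.8 and 11.0 RPM in Tau tg. mir-708 was at 0.468, 0.678 and 0 RPM in WT versus 2.56, 7.53 and 11.9 RPM in Tau tg. For these 8 hairpins, 3 reads correspond to between 0.427 and 2.75 RPM, depending on the sample, so that several WT values rest on 1 read or none. The WT means of mir-667, mir-574 and mir-708 were 0.156, 0.312 and 0.382 RPM, so these hairpins passed the 1 RPM filter only through Tau tg. Those of mir-199b and let-7c-1, 1.07 and 1.71 RPM, were below the 2 RPM used for naming. The listing of these hairpins thus depends on the group in which they were high and is no evidence of a difference. None of the 8 passed correction. Among the 15 most abundant hairpins, log2 differences lay between −0.26 and 0.85. The highest was that of let-7b, at 437, 192 and 197 RPM in WT and 420, 525 and 441 RPM in Tau tg, with overlap (limma adjusted p = 0.88).

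Hairpins grouped by the cell type in which their miRNAs are best known gave no call at an unadjusted p under 0.05 in either direction. The neuronal list (13 hairpins tested, led by mir-124-2, mir-9-2, mir-128-1 and mir-132) summed to 3497 to 3932 RPM in WT and 3473 to 4230 RPM in Tau tg, with a median log2 difference of 0.22. The oligodendrocyte list (3 tested, mir-219-2, mir-338 and mir-219-1) summed to 128 to 156 RPM and 145 to 226 RPM. The endothelial and smooth muscle list (3 tested, led by mir-126) was at 125 to 225 RPM and 181 to 234 RPM. Microglia and leukocyte hairpins (2 tested, mir-150 and mir-146a first, with mir-155 and mir-223 at 0) were at 9.49 to 41.7 RPM and 11.9 to 37.6 RPM, and erythroid hairpins (2 tested, led by mir-451) at 13.6 to 26.4 RPM and 8.59 to 42.7 RPM. The median log2 difference was −0.05 for the oligodendrocyte list and 0.48 for the endothelial and smooth muscle list. It was 0.76 for microglia and leukocyte hairpins and 0.35 for erythroid hairpins.

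Choroid plexus hairpins (2 tested, mir-204 and mir-448, with mir-211, mir-1264, mir-1298 and mir-1912 at 0) ranged from 30.5 to 135 RPM in WT and from 52.7 to 200.2 RPM in Tau tg. Their median log2 difference was 1.24, and members of mir-448 were absent from every WT sample and from Tau tg 3. Pituitary and epithelial hairpins (5 tested, led by mir-200a and mir-141, with mir-429 at 0) ranged from 57.1 to 112 RPM and from 42.5 to 61.0 RPM, with a median log2 difference of −1.04. The part of these cell types in the results above was not tested. Hairpins processed without Drosha or without Dicer (4 tested, led by mir-320 and mir-451) ranged from 41.7 to 137 RPM in WT and from 41.5 to 76.9 RPM in Tau tg, with a median log2 difference of −0.58. The median over all 910 sums was 0.25.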

How the data were processed

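Per the study's methods, the authors used SPOROS: trimming (Trim Galore, per the submitters' processing notes), collapsing to unique sequences, removal of rare ones and a BLAST search against lists of mouse small RNAs. Search settings are not given in the sources used here. The deposited values are RPM, scaled by the authors to the reads of each sample. Whole reads were recovered from them (100% of values within 0.01 read of a whole number), at 998248 to 6879551 reads per sample. The deposited viability score of each 6mer seed, the authors' average over 3 murine cell lines, and the deposited total of each sequence were used as given.

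Members were compared with RefSeq hairpins and mature miRNAs (GRCm38.p6) and with the annotated reads of the table. Members were assigned, in this order, to exact hairpin matches, pieces of an annotated read of at least 1 RPM, and single substitutions, with the most abundant parent. Arms were the RefSeq mature miRNAs and the most abundant annotated read of each miRNA. Reads that share a hairpin name share a source and are not replicates.

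limma 3.58.1 with a mean-variance trend was fitted to log2(RPM + 1) for every sequence or sum averaging 1 RPM or more, with Benjamini-Hochberg adjustment over all of them. Differences on this scale understate changes at low levels. Single values were compared by an exact two-sided permutation test over 20 assignments, for which p cannot fall below 0.1. The alternatives were other pseudocounts, filters and scalings, a block for the replicate number, 5 samples at a time, and recovered reads tested by edgeR 4.0.16 or DESeq2 1.42.0. The fits were tested on simulated data. Calculations used SciPy 1.17.1, pandas 2.3.3, NumPy 2.4.6, Python 3.11.15 and R 4.3.3.

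The 15 most abundant hairpins, up to 8 per direction with an unadjusted p under 0.05, no overlap and at least 2 RPM, any adjusted call, the 6 most abundant seeds and the hairpin lists were named. Other reads were named after their values were seen, and so were the substitution sites of at least 5%. The members, lists and tests were chosen with earlier results of these data known. Per the study's methods, each group was 3 mice, whereas the study's figure legends name quadruplicate samples for this comparison. The data used here held 3 samples per group.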

Additional observations from a re-analysis of the deposited data

Results flagged for a closer look

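Data outside the 6 samples carried some members at higher levels than the samples did. The deposited total of a sequence exceeded 1.5 times the sum of the 6 samples for 1893 of 7951 members (23.8%), which held 6.13% to 9.41% of member RPM per sample. The largest excess was a 22-nt read of mir-197, with a total of 2190 RPM against 76.5 RPM in the 6 samples, where it was found in every sample at 4.91 to 24.8 RPM. Reads of mir-374, mir-193b, mir-151 and mir-455 followed, with totals of 1322, 1008, 768 and 631 RPM and 5.76, 8.93, 13.6 and 8.93 times the 6 samples. The cause, and whether these reads came from mouse RNA, was not tested.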

How the results depend on the processing

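No member passed an adjusted p of 0.05 under the limma and edgeR alternatives with all samples. DESeq2 gave 7 sequences (564 of all 35584). Leaving out a replicate gave 0 to 1 sequences (a mir-1937a read, without WT 3, where 17 of all 33562 passed). At an unadjusted p, 40 sequences (803 of all 36070) became 70 with a pseudocount of 0.1 (1029 of all) and 20 with a pseudocount of 5 (429 of all). They became 6 of 222 with a mean of at least 10 RPM (167 of all 3899) and 68 with DESeq2 (3062 of all 35584). With a replicate left out they were 24 to 44 (531 to 942 over all sequences), the lowest without Tau tg 2. The 11 hairpin sums (46 of all 910) became 3 of 133 with a mean of at least 10 RPM (28 of all 609). They became 17 without the trend (52 of all 910) and 6 with edgeR (40 of all 910). With a replicate left out they were 7 to 11 (31 to 70 over all sums), the lowest without WT 2 or Tau tg 3. With a replicate block, 38 sequences (809 of all 36070) and 8 sums (41 of all 910) were called. The paired sign-flip p of the viability difference was 0.25, the smallest it can be. The samples share only a number: deviations of same-numbered samples correlated at 0.16, 0.05 and −0.03. Results without sequences of excess total, chosen after seeing the data, kept their direction. There, 32 sequences (779 of all 35841) and 9 sums (44 of all 895) were called, and the viability difference was −0.640. The viability difference (−0.642 points) was negative in the alternatives run, at −0.320 without WT 3, −0.886 without WT 2 and −3.90 as a weighted median. The difference in read share (0.133 points) was positive, at 0.0388 without Tau tg 2, 0.240 without Tau tg 3 and 0.0734 for reads of 19 to 25 nt only. Some differences changed sign with a sample left out or with another method. With a sample left out, the share of 19 to 25 nt (−0.438 points) ranged from −1.46 to 0.573 and was positive without WT 2 (0.491) or Tau tg 2 (0.573). The share outside the arms (−0.0223) ranged from −0.487 to 0.504 and was positive without WT 1 (0.504), Tau tg 2 (0.0739) or Tau tg 3 (0.277). Log2 differences of mir-341 ranged from −0.39 to 0.14 (0.0062 with WT 2 left out, 0.093 for Tau tg 1, 0.14 for Tau tg 3), and those of mir-29a from −0.33 to 0.29 (0.055 for WT 1, 0.0020 for WT 3, 0.29 for Tau tg 2). They ranged from −0.017 (WT 1 left out) to 0.72 for mir-128-1, from −0.39 to 0.0088 (WT 1) for mir-125b-2, from −0.38 to 0.021 (WT 2; 0.012 for Tau tg 2) for mir-29b-2 and from −0.043 (WT 3) to 0.53 for let-7a-1. DESeq2 turned let-7c-2 (−0.019), mir-128-1 (−0.0087) and mir-26a-2 (−0.014). Differences of site shares, also added after seeing the data, ranged from −2.96 to 2.50 points for miR-376b-3p A6G (2.50 with WT 2 left out, 0.997 for Tau tg 1), from −7.96 to 6.19 for miR-411-5p A5G (6.19 for WT 3, 1.23 for Tau tg 2), from −8.49 to 7.55 for miR-421-3p A14G (7.55 for WT 2, 2.19 for Tau tg 2) and from −5.03 to 1.93 (WT 3) for miR-362-3p G10A.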
